A study of Mus musculus with 6 samples.

Results

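The genes described here are 9 markers of endothelial cells, S1pr1, Pecam1, Cdh5, Kdr, Flt1, Tek, Tie1, Emcn and Cldn5, and Vegfa, the ligand of Kdr and Flt1. They were taken by symbol as 10 of the 23282 rows of the count tables, and all 10 passed the filter on low counts. S1pr1 was picked for its lower level with inotodiol in these same libraries, so its difference between the groups is a description and carries no test. The other 9 were taken as known endothelial markers with Vegfa, and the list was made with earlier results of these data known. RNA was sequenced from gastrocnemius muscle of wild-type male C57/BL6J mice aged 20 months. Inotodiol mice (n = 3) were given 0.35 mg/kg inotodiol, a triterpenoid of the chaga mushroom, by mouth each day for 10 weeks, and vehicle mice (n = 3) were given the carrier of 40% polyethylene glycol, 5% Tween 80 and 0.9% saline. The title places the study in muscle wasting with age and in signalling by liver X receptor beta.

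Muscle fibres are supplied by a dense bed of capillaries. The fibres secrete VEGF-A, which acts on receptors of the capillary endothelium; angiopoietins act on a second receptor system that holds vessels stable, and sphingosine-1-phosphate of the blood acts on S1PR1 to tighten endothelial junctions and restrain sprouting. In whole muscle, fewer endothelial cells and less RNA per cell cannot be told apart.

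Libraries held 8961893 to 9953764 counts. Genes of the labelled tissue, skeletal muscle fibres (12 listed, none at 0) took 163200 to 169400 unscaled CPM in inotodiol and 165900 to 178500 unscaled CPM in vehicle libraries. Genes of hepatocytes (16 listed) took 690.2, 291.0 and 122.3 unscaled CPM in inotodiol libraries 1 to 3, against 51.0, 103.9 and 71.2 unscaled CPM in vehicle libraries 1 to 3. Exocrine pancreas genes (9 listed) summed to 58.8, 0.412 and 0.210 unscaled CPM in inotodiol and 0.6695, 1.515 and 1.146 unscaled CPM in vehicle libraries, and Rn45s, the ribosomal RNA precursor, took 10.2, 9.56 and 4.33% of counts in inotodiol and 3.97, 6.82 and 4.38% in vehicle libraries. With Rn45s and the hepatocyte and pancreas genes removed, S1pr1 stood at -0.66 and edgeR called 0 of the other 9 genes. Of the markers of liver sinusoidal endothelium, Oit3 was at 0 counts in all 6 libraries and Clec4g had 0 to 7 counts; Stab2, which lymphatic vessels also make, had 42 to 73 counts in inotodiol and 19 to 79 in vehicle libraries. Over all 11700 genes tested, edgeR called 0 at an adjusted p under 0.05 (0%) and limma-voom 0. In edgeR 570 genes (4.87%) had an unadjusted p under 0.05. DESeq2, run without this filter on low counts, called 1 of 16479 genes. Log2 fold changes were above 0 for 5839 and below 0 for 5861 genes.

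S1pr1, the G protein-coupled receptor for sphingosine-1-phosphate on endothelium and lymphocytes (chromosome 3, 115710433 to 115715072, minus strand), was lower in every inotodiol mouse than in any vehicle mouse, while the other endothelial genes showed no shared shift. Counts of S1pr1 were 198, 180 and 213 in inotodiol libraries 1 to 3, against 280, 323 and 367 in vehicle libraries 1 to 3. Scaled, these were 21.5, 20.0 and 21.8 CPM with inotodiol and 29.5, 34.9 and 36.0 CPM with vehicle. The inotodiol mice were close to each other, and the gap to the lowest vehicle mouse, vehicle 1, was wider than their whole range. S1pr1 averaged 21.1 ± 0.987 CPM in inotodiol muscle and 33.5 ± 3.5 CPM in vehicle muscle (SD, n = 3 each), a log2 fold change of -0.67 ± 0.18 (SE) or 0.630-fold. With single libraries left out this value lay between -0.75 and -0.61, and over all 14 alternatives between -0.78 and -0.61. Groups that do not overlap with inotodiol lower were seen for 616 genes, 5.26% of those tested; nothing is read from this, since S1pr1 was picked on this contrast.

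**Figure D1:**
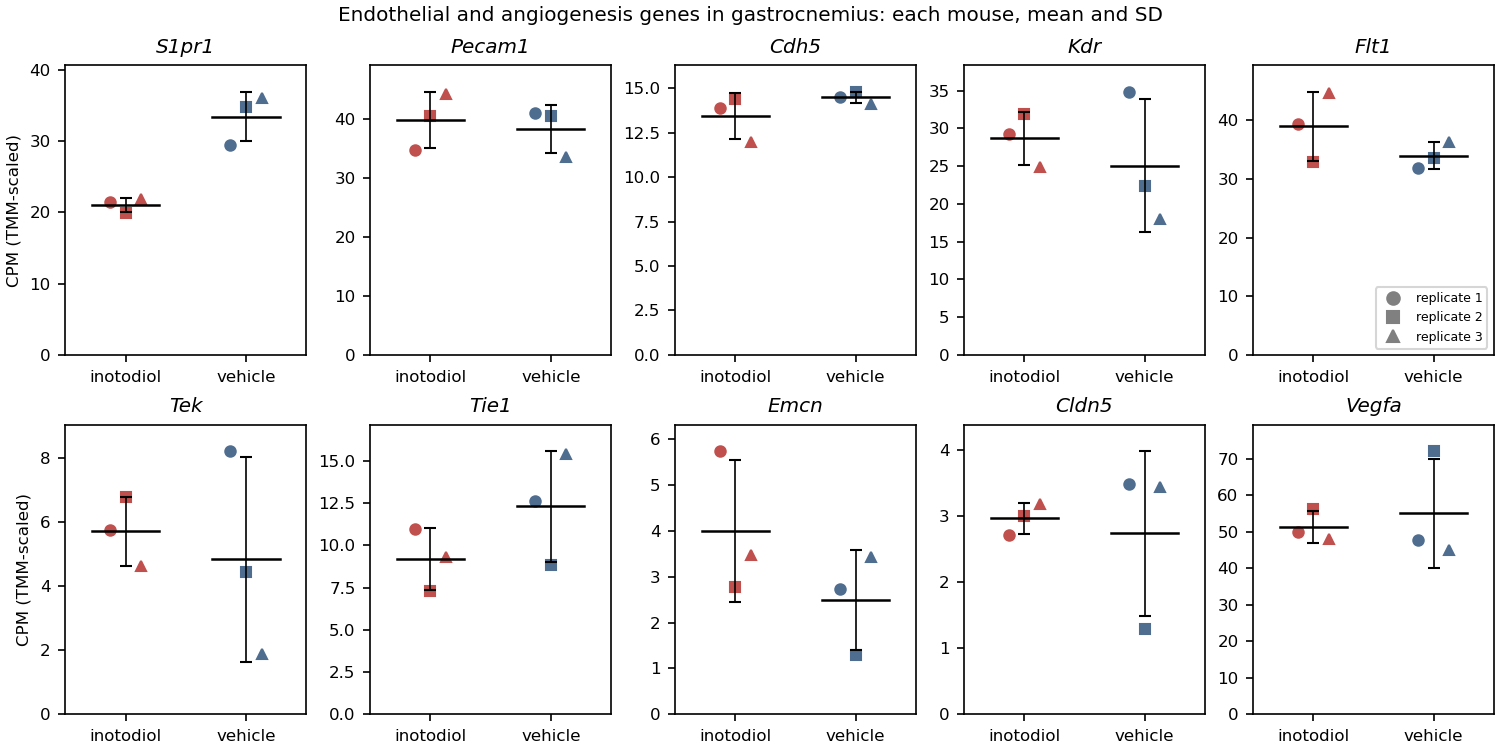
TMM-scaled CPM (y axis, from 0) of the 10 genes in inotodiol mice (left, red) and vehicle mice (right, blue); marker shapes are replicates 1 to 3, horizontal lines are means and bars SD. S1pr1 lies at 20.0 to 21.8 CPM with inotodiol and at 29.5 to 36.0 CPM with vehicle, and the groups overlap for the other 9 genes.

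Set against counts of each of the 8 other endothelial genes in the same library, the S1pr1 ratio was lower on average with inotodiol for all 8, and the groups did not overlap for 5 of them, Pecam1, Cdh5, Flt1, Emcn and Cldn5. The ratio of S1pr1 to Flt1 counts was 0.547, 0.608 and 0.489 in inotodiol libraries and 0.927, 1.04 and 0.992 in vehicle libraries. To Pecam1 it was 0.619, 0.492 and 0.493 in inotodiol libraries and 0.720, 0.861 and 1.07 in vehicle libraries, and to Cdh5 it averaged 1.58 ± 0.220 with inotodiol and 2.31 ± 0.263 with vehicle (SD, n = 3 each). The groups overlapped for the ratios to Kdr, Tek and Tie1. The ratio to Kdr was 0.877 in inotodiol 3 and 0.846 in vehicle 1, and the ratio to Tie1 averaged 2.34 with inotodiol and 2.87 with vehicle. Log2 CPM of S1pr1 minus the mean of the 8 other endothelial genes was 0.78, 0.80 and 0.91 in inotodiol libraries 1 to 3, against 1.19, 1.96 and 1.80 in vehicle libraries 1 to 3. The mean difference, inotodiol minus vehicle, was -0.82, and -0.67 without vehicle 2. These ratios are descriptions. They rest on the counts of S1pr1, which was picked for its lower level, so lower ratios follow in part from that choice. No share of non-overlapping ratios over all genes was computed, so nothing is read from the 5.

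**Figure D2:**
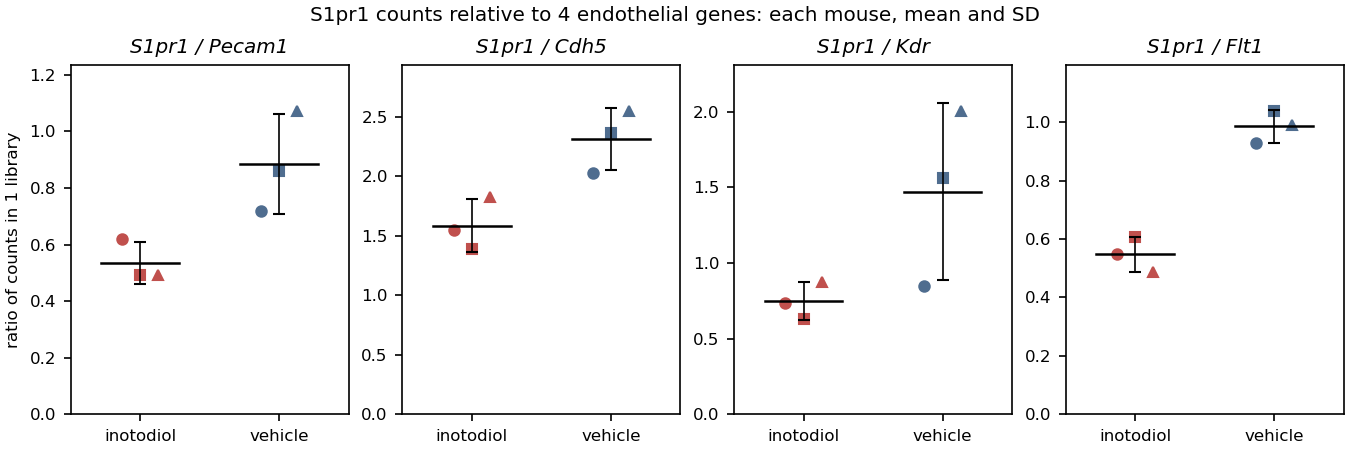
Ratio of S1pr1 counts to counts of Pecam1, Cdh5, Kdr and Flt1 in the same library (y axis, from 0), inotodiol mice left and vehicle mice right; marker shapes are replicates, lines means and bars SD. Only the ratio to Kdr overlaps among these 4, through vehicle 1 at 0.846 and inotodiol 3 at 0.877.

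S1pr1 is also made by lymphocytes, whose markers were sparse. Ptprc, the pan-leukocyte phosphatase CD45, had 158, 38 and 15 counts in inotodiol libraries and 49, 42 and 113 counts in vehicle libraries. The other 11 lymphocyte genes had 0 to 12 counts each in inotodiol libraries and 0 to 22 in vehicle libraries. The list of 12 summed to 19.8, 4.22 and 1.89 unscaled CPM in inotodiol libraries and 12.2, 5.19 and 14.6 unscaled CPM in vehicle libraries. Macrophage genes (9 listed, none at 0) took 60.7 to 184.1 unscaled CPM in inotodiol and 103.9 to 279.4 unscaled CPM in vehicle libraries; the part of lymphocytes and macrophages in the S1pr1 values was not tested.

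The other tested genes of the sphingosine-1-phosphate pathway lay on both sides of 0, and Gnai3 was as far below 0 as S1pr1. Of 23 listed genes 16 were tested, 6 above 0 and 10 below 0 on the log2 fold scale, with a median of -0.036 (0.024 without vehicle 3) against -0.00073 for all genes tested. As over all genes tested, edgeR called 0 of these 16. At an unadjusted p under 0.05 there were 0, against 4.87% of all genes tested. Among the other receptors, S1pr2 had 28, 24 and 18 counts in inotodiol libraries and 14, 19 and 17 in vehicle libraries, a log2 fold change of 0.53 ± 0.60. S1pr4, the receptor of blood cells, stood at -0.026 ± 0.67, S1pr3 had 3 to 12 counts per library and was not tested, and S1pr5 was at 0 counts in all 6. The transcription factor Klf2, known to switch on S1pr1 in lymphocytes and itself induced by flow in endothelium, had 54.9, 61.2 and 47.6 CPM in inotodiol muscle and 36.5, 53.0 and 62.9 CPM in vehicle muscle, with overlapping groups (log2 fold change 0.10 ± 0.20). The kinase gene Sphk2, which makes the ligand, stood at -0.071 ± 0.20 and its exporter Spns2 at -0.046 ± 0.22; both overlap another gene on the opposite strand. The 4 genes with the smallest p were Gnai3, a G protein subunit that couples to such receptors (-0.67 ± 0.38, from 45, 35 and 31 counts in inotodiol libraries and 49, 53 and 82 in vehicle libraries), the lipid phosphatase gene Ppap2a (0.25 ± 0.15), the sphingosine-1-phosphate phosphatase gene Sgpp1 (-0.28 ± 0.21) and Stat3 (-0.16 ± 0.15), with adjusted p of 0.96, 0.96, 0.96 and 0.97 in edgeR. The groups did not overlap for Gnai3 and Ppap2a, in opposite directions. These were 1 gene lower and 1 higher of the 16 tested, near the 10.4% of all genes tested with non-overlapping groups in either direction.

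None of the other 9 genes was called by edgeR, DESeq2 or limma-voom. Over all genes tested edgeR and limma-voom called 0 and DESeq2 1, so the absence of calls says little about these 9. In edgeR 0 of 9 had an unadjusted p under 0.05, against 4.87% of all genes tested. Non-overlapping groups occurred in 0 of these 9, against 10.4% of all genes tested in either direction. Their log2 fold changes ran from -0.42 for Tie1 to 0.68 for Emcn, with adjusted p from 0.96 to 1.00 in edgeR.

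**Figure D3:**
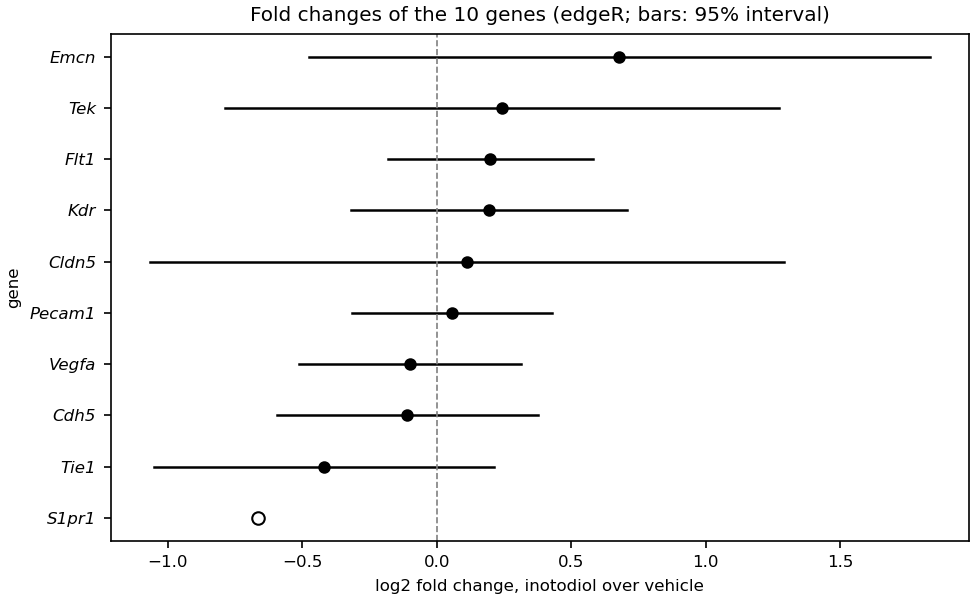
Log2 fold change, inotodiol over vehicle (x axis), for the 10 genes in order of the estimate; bars are 95% intervals of the edgeR fit, and S1pr1 (open circle, -0.67) has none because it was picked on this contrast. Every interval drawn covers 0, from the narrow ones of Pecam1 and Flt1 to the wide ones of Emcn, Cldn5 and Tek.

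Vegfa, the growth factor that muscle fibres secrete under low oxygen and with exercise (chromosome 17, 46016993 to 46032369, minus strand), was near the same level in both groups. It had 49.9, 56.1 and 47.9 CPM in inotodiol muscle and 47.8, 72.1 and 45.1 CPM in vehicle muscle. Only vehicle 2 stood apart from the other 5 mice, which lay between 45.1 and 56.1 CPM. The means were 51.3 ± 4.31 CPM with inotodiol and 55.0 ± 14.9 CPM with vehicle (SD, n = 3 each), a log2 fold change of -0.10 ± 0.19 with a 95% interval of -0.51 to 0.31 (edgeR adjusted p = 0.99). Without vehicle 2 the estimate was 0.15, on the other side of 0.

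The receptors were examined as pairs, Kdr with Flt1 for VEGF and Tek with Tie1 for the angiopoietins, since within each pair the patterns over the mice parted. RefSeq promoters, from 250 bases before to 50 bases after the RefSeq start of the gene on GRCm38.p6, are printed 5′ to 3′ to set the pairs side by side. RefSeq entries were matched for 7 of the 10 genes. The printed promoters are chr5:75978406-75978705 for Kdr (minus strand), chr5:147725962-147726261 for Flt1 (minus strand), chr4:94739039-94739338 for Tek (plus strand) and chr4:118489800-118490099 for Tie1 (minus strand). The RefSeq start of Tie1 lies inside the gene span given for Tie1 below, so most of its window falls within that span. Capitals mark AGGAAG or its reverse complement CTTCCT. This is a sequence among those that factors of the ETS family, such as ERG and FLI1 of endothelium, bind.
Kdr: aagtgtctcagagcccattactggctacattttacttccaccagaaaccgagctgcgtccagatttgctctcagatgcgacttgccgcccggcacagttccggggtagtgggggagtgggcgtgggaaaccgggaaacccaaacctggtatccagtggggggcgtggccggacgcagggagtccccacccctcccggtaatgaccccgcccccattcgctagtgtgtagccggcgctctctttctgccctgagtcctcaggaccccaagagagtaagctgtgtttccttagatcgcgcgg
Flt1: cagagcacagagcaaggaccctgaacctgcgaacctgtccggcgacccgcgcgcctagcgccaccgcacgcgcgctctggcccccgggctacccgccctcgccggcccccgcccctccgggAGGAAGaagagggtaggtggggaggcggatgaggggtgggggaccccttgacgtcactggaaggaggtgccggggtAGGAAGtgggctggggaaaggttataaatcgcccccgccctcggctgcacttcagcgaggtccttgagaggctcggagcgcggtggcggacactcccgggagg
Tek: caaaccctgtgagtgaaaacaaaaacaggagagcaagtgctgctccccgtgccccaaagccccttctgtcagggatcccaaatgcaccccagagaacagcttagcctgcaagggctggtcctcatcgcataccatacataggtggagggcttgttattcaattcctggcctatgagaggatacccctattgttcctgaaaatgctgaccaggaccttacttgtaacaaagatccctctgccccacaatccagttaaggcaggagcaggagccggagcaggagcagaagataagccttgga
Tie1: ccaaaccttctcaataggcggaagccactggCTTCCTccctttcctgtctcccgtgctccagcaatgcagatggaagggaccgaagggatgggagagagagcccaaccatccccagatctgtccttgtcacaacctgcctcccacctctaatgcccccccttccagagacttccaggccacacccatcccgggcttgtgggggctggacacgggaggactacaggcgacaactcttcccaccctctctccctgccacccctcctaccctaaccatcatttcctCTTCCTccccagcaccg
This exact sequence occurred 2 times in the Flt1 promoter, 2 times in the Tie1 promoter, and 0 times in those of Kdr and Tek. Shorter or other forms that ETS factors bind were not counted, so 0 does not mean that a promoter lacks them. Of all 32851 RefSeq promoters of this length, 35.4% hold AGGAAG on either strand, so a match is a description of these letters and not of a binding site. Among the other matched genes AGGAAG occurred 2 times for Emcn and 0 times for Cldn5 and Vegfa. A second sequence, GGGCGG or its reverse complement CCGCCC, was also counted and is not marked. It occurred 2 times for Kdr, 3 times for Flt1 and 0 times for Tek and Tie1, and 35.7% of all promoters hold it.

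Kdr encodes VEGFR2, the main signalling receptor for VEGF-A (chromosome 5, 75932827 to 75978458). It had 29.3, 31.8 and 24.9 CPM in inotodiol muscle and 34.9, 22.4 and 17.97 CPM in vehicle muscle. The vehicle mice spanned the inotodiol values on both sides. Means were 28.7 ± 3.51 CPM with inotodiol and 25.1 ± 8.77 CPM with vehicle, a log2 fold change of 0.19 ± 0.24 (95% interval -0.32 to 0.71, edgeR adjusted p = 0.99). With vehicle 3 left out it was 0.0033 and with vehicle 1 left out 0.51.

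Flt1 encodes VEGFR1, which binds VEGF-A tightly and acts largely as a decoy (chromosome 5, 147561604 to 147726011). It had 39.3, 32.8 and 44.7 CPM in inotodiol muscle and 31.8, 33.6 and 36.3 CPM in vehicle muscle, with a log2 fold change of 0.20 ± 0.18 (95% interval -0.18 to 0.58, edgeR adjusted p = 0.96), 0.088 without inotodiol 3 and 0.31 without inotodiol 2. The vehicle mice, so far apart for Kdr, were close for Flt1, at a coefficient of variation of 6.74% for Flt1 and 34.97% for Kdr. Counts of Kdr per count of Flt1 were 0.746, 0.970 and 0.557 in inotodiol libraries and 1.096, 0.666 and 0.495 in vehicle libraries, with like means of 0.758 ± 0.206 and 0.752 ± 0.310 (SD, n = 3 each).

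Tek encodes TIE2, the receptor that angiopoietins bind (chromosome 4, 94739289 to 94874976). Its counts were 53, 61 and 45 in inotodiol libraries and 78, 41 and 19 in vehicle libraries. Vehicle 1 was highest and vehicle 3 lowest of all 6, as for Kdr, and the exact 95% Poisson intervals of these counts, 61.7 to 97.3 and 11.4 to 29.7, did not meet. The log2 fold change was 0.24 ± 0.48 (95% interval -0.79 to 1.27, edgeR adjusted p = 0.99), -0.15 without vehicle 3 and 0.86 without vehicle 1, so single vehicle mice set its sign.

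Tie1, the orphan partner that forms complexes with TIE2 (chromosome 4, 118471191 to 118490061), had counts of 101, 66 and 91 in inotodiol libraries and 120, 82 and 157 in vehicle libraries. In vehicle 3, where Tek was lowest, Tie1 was highest. Tie1 averaged 9.20 ± 1.82 CPM with inotodiol and 12.3 ± 3.30 CPM with vehicle (SD, n = 3 each), a log2 fold change of -0.42 ± 0.29 (95% interval -1.05 to 0.21, edgeR adjusted p = 0.96), -0.22 without vehicle 3 and -0.60 without vehicle 2. Counts of Tek per count of Tie1 were 0.525, 0.924 and 0.495 in inotodiol libraries and 0.650, 0.5 and 0.121 in vehicle libraries, so that vehicle 3 stood below the other 5.

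**Figure D4:**
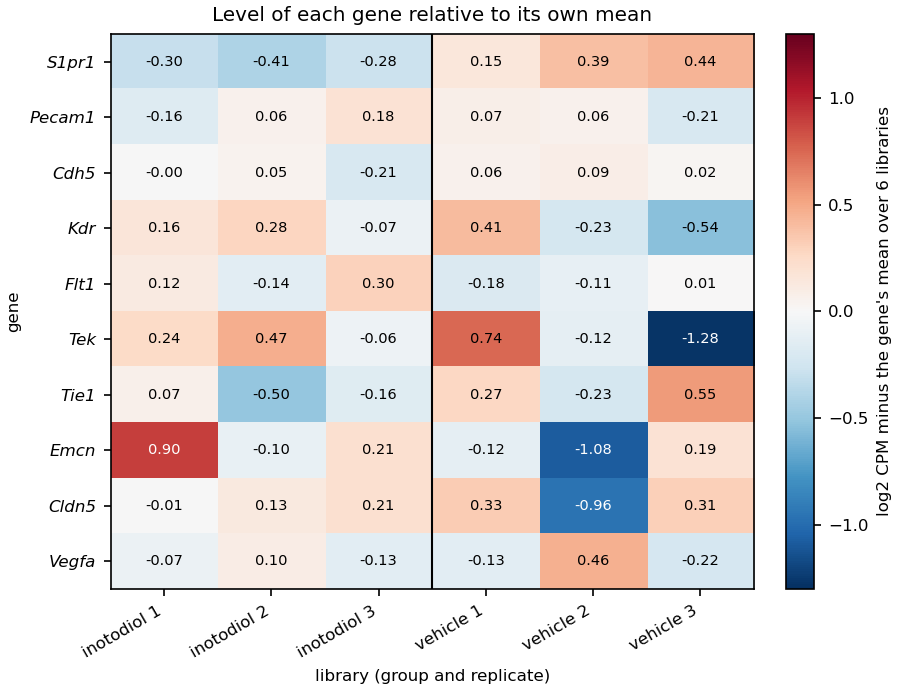
Log2 CPM of each gene (rows) minus its own mean over the 6 libraries (columns; inotodiol left of the line, vehicle right); red is above and blue below the mean. S1pr1 is below its mean in all 3 inotodiol libraries, Kdr and Tek are both highest in vehicle 1 and lowest in vehicle 3, and Emcn and Cldn5 are both lowest in vehicle 2.

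Of the 3 junction genes Cdh5 varied least and Cldn5 most. Cdh5, VE-cadherin of the endothelial adherens junction (chromosome 8, 104101625 to 104144511), had 13.9, 14.4 and 11.99 CPM in inotodiol muscle and 14.5, 14.8 and 14.1 CPM in vehicle muscle. The highest library was 1.23-fold the lowest, the least spread of the 10 genes, and the log2 fold change was -0.11 ± 0.23 (95% interval -0.59 to 0.38, edgeR adjusted p = 0.99), between -0.16 and -0.034 with single libraries left out. The annotation places the antisense gene Gm29682 over its start. No counts were found under that symbol in the 6 libraries. Whether Gm29682 was counted at all was not checked, so nothing is read from this. The other 9 genes overlap no annotated gene. Pecam1, the adhesion molecule CD31 of endothelium, platelets and leukocytes (chromosome 11, 106654217 to 106750628), had 34.7, 40.6 and 44.3 CPM with inotodiol and 41.0, 40.5 and 33.6 CPM with vehicle. Its log2 fold change was 0.057 ± 0.17 with a 95% interval of -0.32 to 0.43 (edgeR adjusted p = 1.00), which spans folds from 0.804 to 1.35.

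Cldn5, the claudin of endothelial tight junctions (chromosome 16, 18776847 to 18778262), and Emcn, the sialomucin endomucin of capillary and venous endothelium (chromosome 3, 137341067 to 137432185), had few counts. Cldn5 had 25, 27 and 31 counts in inotodiol libraries and 33, 12 and 35 in vehicle libraries, a log2 fold change of 0.11 ± 0.55 (95% interval -1.07 to 1.29). Emcn had 53, 25 and 34 counts in inotodiol libraries and 26, 12 and 35 in vehicle libraries, a log2 fold change of 0.68 ± 0.54 (95% interval -0.47 to 1.83), 0.33 without inotodiol 1 and 0.98 without vehicle 3. Vehicle 2 held the lowest count of both genes, and inotodiol 1 the highest of Emcn. At this depth a difference of either gene smaller than its interval was not detectable. Without vehicle 2, Cldn5 stood at -0.21.

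Further endothelial genes lay on both sides of 0. Of 39 further endothelial markers 36 were tested, 17 above 0 and 19 below 0, with a median log2 fold change of -0.019 (0.13 without vehicle 1). As over all genes tested, edgeR called 0 of them. Only 1 had an unadjusted p under 0.05, against 4.87% of all genes tested. That gene was Gpihbp1, which holds lipoprotein lipase on the capillary wall, at 20.2, 15.8 and 29.5 CPM in inotodiol muscle and 11.7, 14.7 and 16.3 CPM in vehicle muscle (log2 fold change 0.62 ± 0.26, edgeR adjusted p = 0.96), with overlapping groups. The junction gene Esam stood at 0.52 ± 0.24, the surface antigen gene Ly6a at -0.43 ± 0.22 and Myct1 at -1.17 ± 0.62. By vessel type, 7 of 11 arterial and Notch genes tested lay above 0 (median 0.27, and -0.0013 without inotodiol 3), led by Jag2 (0.54 ± 0.38), Unc5b (0.67 ± 0.49), Dll4 (0.59 ± 0.63) and Notch1 (0.35 ± 0.41). None of the 11 had separate groups, against 10.4% of all genes tested in either direction. Of 5 venous genes tested 3 lay below 0 (median -0.37, and -0.12 without vehicle 1, -0.15 without inotodiol 2 and -0.59 without inotodiol 3). Nr2f2, which specifies veins and is also made by other mesenchymal cells, had 132.5, 103.4 and 123.5 CPM in inotodiol muscle and 99.5, 102.2 and 92.7 CPM in vehicle muscle (0.29 ± 0.14), with the groups apart. This was 1 of the 5 venous genes tested, against 10.4% of all genes tested in either direction. The other venous genes with the smallest p were Lrg1 (-0.37 ± 0.24), Ackr1 (-0.69 ± 0.57) and Ephb4 (-0.46 ± 0.51). In 6 lymphatic genes tested, 5 below 0 (median -0.20, and 0.0059 without inotodiol 2), Mmrn1 had the smallest p, with 4, 0 and 4 counts in inotodiol libraries and 22, 11 and 36 in vehicle libraries (log2 fold change -2.99 ± 0.97, edgeR adjusted p = 0.85). Mmrn1 is also made by platelets, whose gene Pf4 had 174, 125 and 65 counts in inotodiol libraries and 117, 168 and 316 counts in vehicle libraries; their part was not tested. Ccl21a stood at 0.49 ± 0.47, Reln at -0.50 ± 0.68 and Flt4, the VEGF-C receptor, at -0.33 ± 0.54. The symbol Ccl21a has a further row, which had 0 counts in all libraries and was not tested.

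Ligands and co-receptors of the VEGF system, like Vegfa and like all 11700 genes tested, showed no called difference in edgeR. Of 13 listed genes 9 were tested, 5 above 0 and 4 below 0, with a median of 0.068 (-0.043 without vehicle 2). Vegfb, a ligand of Flt1, had 119.4, 130.3 and 162.4 CPM in inotodiol muscle and 111.1, 131.9 and 107.9 CPM in vehicle muscle (0.23 ± 0.15). Figf, which encodes VEGF-D, stood at -0.63 ± 0.34, the co-receptor genes Nrp1 at -0.24 ± 0.15 and Nrp2 at 0.068 ± 0.28, and the adaptor gene Shc2 at 0.47 ± 0.35; Vegfc and Pgf, with 0 to 13 counts per library, were not tested. Among 8 tested genes of the angiopoietin system 3 lay above 0 and 5 below (median -0.025, and 0.043 without vehicle 3). Angpt1, the activating ligand of TIE2, had 61, 116 and 114 counts in inotodiol libraries and 115, 71 and 118 in vehicle libraries (-0.0097 ± 0.32), and Angpt2, the context-dependent antagonist, stood at -0.041 ± 0.69; both overlap a gene on the opposite strand. Angptl2 (-0.22 ± 0.20), Angptl1 (-0.76 ± 0.81), Foxo1 (0.16 ± 0.17) and Svep1 (-0.37 ± 0.63) had the smallest p of this list.

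Junction partners, with 6 of 14 tested genes above 0 (median -0.087), held Esam, named above among the endothelial markers, at 0.52 ± 0.24, Ctnnd1, the p120 catenin that keeps cadherins at the membrane, at -0.46 ± 0.22, the plakoglobin gene Jup at -0.35 ± 0.19 and the junctional adhesion gene F11r at -0.30 ± 0.20. Hypoxia genes, of which Vegfa is a textbook target, had 10 of 19 above 0 (median 0.039, and -0.058 without inotodiol 3). Hif1a, the oxygen-regulated factor, was at 11.4, 8.77 and 9.43 CPM in inotodiol muscle and 18.3, 12.2 and 11.7 CPM in vehicle muscle (-0.51 ± 0.27, edgeR adjusted p = 0.96), with the groups apart; it overlaps an antisense gene. Ero1l, a disulfide oxidase of the endoplasmic reticulum that hypoxia also induces, had 47, 51 and 49 counts in inotodiol libraries and 16, 24 and 19 counts in vehicle libraries, a log2 fold change of 1.36 ± 0.45 (edgeR adjusted p = 0.89) that ranged from 1.24 to 1.57 over the alternatives. The oxygen sensor Egln1 stood at -0.18 ± 0.13 and Vhl at 0.48 ± 0.41. The groups were also apart for Ero1l, higher with inotodiol, and for Arnt, lower (-0.21 ± 0.19). With Hif1a these were 1 gene higher and 2 lower of the 19 tested, against 10.4% of all genes tested in either direction. Among other angiogenic factors 9 of 24 lay above 0 (median -0.14, and 0.022 without vehicle 2 and -0.25 without vehicle 1), with Fgf1 at 0.41 ± 0.18, Pdgfb, by which endothelium recruits pericytes, at -1.0 ± 0.46, Pdgfa at -0.43 ± 0.20 and Igf1 at -0.51 ± 0.25, each with an adjusted p of 0.96 in edgeR. Pericyte and smooth muscle genes had 6 of 13 above 0 (median -0.040). Of the 39 genes named from these lists for their small p, 18 overlap a gene on the opposite strand, whose reads may not be separable. Over these lists, the pericyte and smooth muscle list left out, 0 of 171 genes other than the 10 passed the adjusted threshold in the fit or in any alternative. The fit called 0 of all 11700 genes, and the most called in an alternative was 95 of 16491, with no filter on low counts. The 171 include genes, such as Sox18 and Gja5, that failed the filter of the main fit and were tested only in some alternatives.

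**Figure D5:**
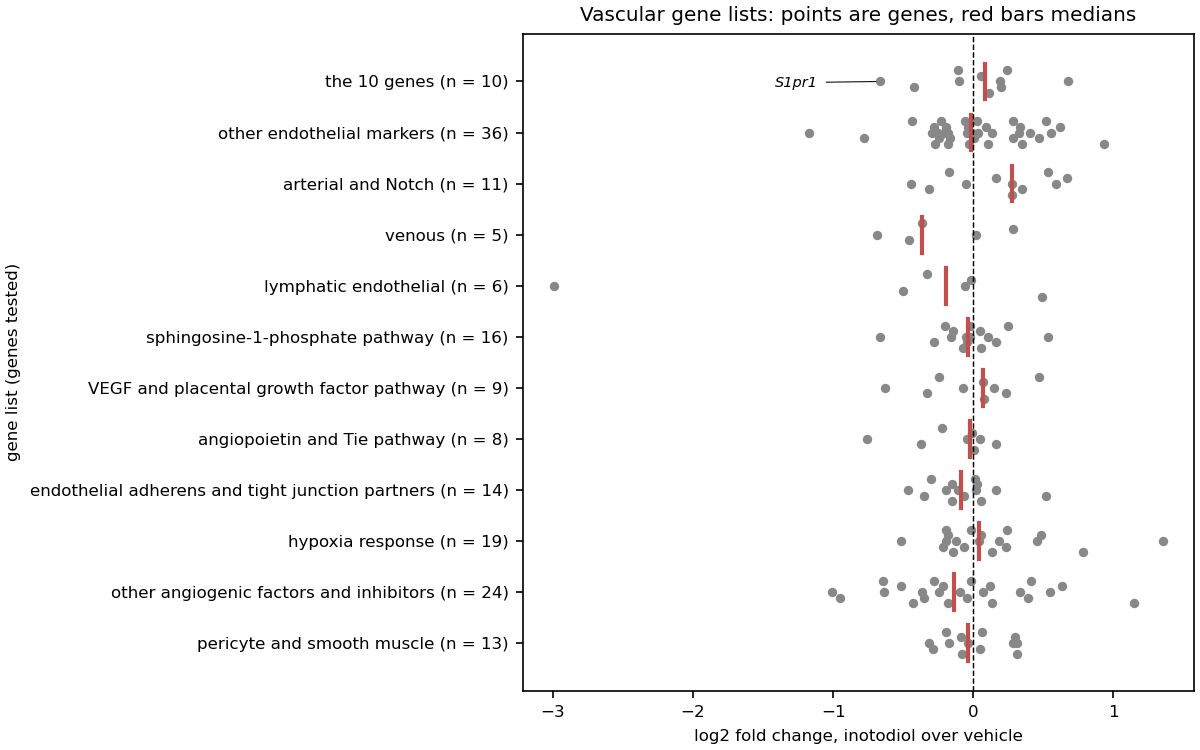
Log2 fold change, inotodiol over vehicle (x axis), of each tested gene (grey points) in 12 vascular gene lists (rows, number tested in brackets), with red bars at the medians. Medians lie from -0.37 in the 5 venous genes to 0.27 in the 11 arterial and Notch genes, and S1pr1 is marked at -0.67.

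The genes whose profile over the 6 libraries lay nearest to that of S1pr1, by the mean absolute difference of centred log2 CPM among 6623 genes of at least 10 CPM, were Usp45 (0.065), the TGF-beta receptor gene Tgfbr2 (0.072), Smim14 (0.080), the acetylcholine receptor gene Chrna1 (0.11) and Creb5 (0.11). Being like S1pr1 they were lower with inotodiol by this choice, at log2 fold changes of -0.81, -0.76, -0.70, -0.57 and -0.45. No endothelial member was among them, but Tek, Emcn and Cldn5 lay under 10 CPM on average and could not enter. Nothing is read from this absence, since S1pr1 was picked on this contrast. Nearest to the mean of the 8 other endothelial genes were Sec62, Srp54b, Nae1, Ruvbl1 and Anapc7, at differences of 0.051 to 0.055. That mean was 0.16, 0.031 and 0.049 above its average in inotodiol libraries 1 to 3, against 0.20, -0.32 and -0.12 in vehicle libraries 1 to 3, and its low value in vehicle 2 follows the few counts of Emcn and Cldn5 there.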

How the data were processed

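The deposited values were whole-number read counts per gene symbol, 1 table per library, with no normalization by the authors visible in the values. Bowtie2, bedtools and mouse build mm10 are named, per the submitters' processing notes; their versions, the annotation and the strand setting are not stated there. Libraries were built with Lexogen's Quant-Seq kit, per the labels' protocols.

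Of 23282 rows, 11700 genes passed edgeR's filterByExpr (minimum count 10, minimum total 15). Counts were TMM-scaled and tested with edgeR 4.0.16 in R 4.3.3 by the two-sided quasi-likelihood test fitting the group alone, with Benjamini-Hochberg adjustment over all 11700 genes at 0.05. The fit was also run on counts simulated from its own dispersions, without the library differences in hepatocyte genes or Rn45s. Nothing is read from that run here. CPM values are TMM-scaled unless called unscaled; log2 CPM used a prior count of 2. The p-values measure the spread between 3 mice per group. Total counts of 8961893 to 9953764 per library limit precision for genes with few counts; exact Poisson intervals cover counting error only.

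The 10 genes and all gene lists were chosen with earlier results of these data known. From each vascular list the up to 4 tested genes with the smallest p were named, with every ligand and receptor tested of the sphingosine-1-phosphate, VEGF and angiopoietin lists, and the 5 genes of at least 10 CPM whose centred profile lay nearest to S1pr1 and to the mean of the other 8 endothelial genes. Alternatives were RLE and library-total scaling, no filter, limma-voom (limma 3.58.1), DESeq2 1.42.0, a filter of 1 CPM in all 6 samples, the replicate number as a block, removal of Rn45s with hepatocyte and pancreas genes, each library left out, and a prior count of 0.5. Gene spans are from GENCODE M21 on GRCm38, the assembly that mm10 carries; promoter sequences are RefSeq's for GRCm38.p6.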

Additional observations from a re-analysis of the deposited data

How the results depend on the processing

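No alternative called any of the 9 genes other than S1pr1. Over all genes edgeR's test called 0 with TMM scaling, 95 with no filter on low counts and 0 to 25 with single libraries left out, the 25 without inotodiol replicate 3, and DESeq2's own test called 1; the cause was not tested. The replicate numbers did not pair the mice (correlations of deviations -0.081, 0.11 and 0.022), and with the replicate number as a block 0 genes were called and the median of the further endothelial markers was 0.022. Library totals in place of TMM moved the median of all genes to -0.12, and with it Pecam1 to -0.055 and Cldn5 to -0.014, on the other side of 0. With single libraries left out Pecam1 ranged from -0.030 to 0.15, Cldn5 from -0.21 to 0.32, Tek from -0.15 to 0.86, Vegfa from -0.225 to 0.15, Emcn from 0.33 to 0.98 and the further endothelial markers' median from -0.12 to 0.13. List medians near 0 changed side as well: library totals gave -0.055 for the VEGF list and -0.080 for the hypoxia list, a filter of 1 CPM gave -0.015 for the hypoxia list, and single libraries left out turned the medians of the arterial, lymphatic, hypoxia, VEGF, angiopoietin, sphingosine-1-phosphate and other angiogenic lists. Those turned medians lay from -0.058 for the hypoxia list to 0.043 for the angiopoietin list. S1pr1 was below 0 in all 14 alternatives. Nothing is read from this, since S1pr1 was picked for its lower level in these same libraries. The 12 to 53 counts of Emcn and Cldn5 limit what can be detected there.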
